A study of Mus musculus with 9 samples.

Results

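The 6 genes of the immunoglobulin receptor families described here were measured in B cells of leukemic and healthy mice. They are Fcrl1, Fcrl5, Fcrla, Fcgr2b, Fcmr and Fcer1g, which were taken as a group by name, with earlier results of these data known. All 6 passed the filter on low counts, out of 11165 genes that did so among 22174 in the table. RNA was sequenced from splenic B cells of 9 C57/BL6NTac mice, with 1 library per mouse and 3 mice per group. Eµ-MTCP1 mice (founder line Z36) carried human MTCP1 and Eµ-TCL1 mice carried human TCL1, in each case driven in B cells by a VH promoter and the IgH Eµ enhancer. The transgenic mice were of matched age and had advanced leukemia; the wildtype mice were littermates negative for human MTCP1 by PCR. B cells were enriched from spleen by negative selection, so other cell types were depleted but not necessarily absent, and the actual ages and sexes of these 9 mice were not given in the sources used here. Eµ-MTCP1 mice of 1 founder line represent 1 integration site.

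Fc receptors bind the constant part of antibodies and carry the signal of bound immune complexes into the cell. In B cells the balance is set by inhibitory receptors: Fcgr2b (FcγRIIB) is the IgG receptor whose cytoplasmic inhibitory motif recruits the lipid phosphatase SHIP and dampens signals of the B cell receptor, whereas activating Fc receptors of myeloid cells signal through the common γ chain encoded by Fcer1g. The Fc receptor-like genes are relatives of these receptors. Fcrl1 is a B cell surface protein known as an activating co-receptor, Fcrl5 combines inhibitory and activating motifs and is known from marginal zone and B1 cells, and Fcrla is an intracellular protein of B cells. Fcmr encodes the receptor for IgM.

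In the mouse annotation of GRCm38, Fcrl1 lies on chromosome 3 (chr3:87376387-87402934, plus strand) with Fcrl5 beside it (chr3:87435773-87500678, plus strand), 32838 bases away. The other 4 genes lie on chromosome 1. Fcrla (chr1:170917576-170927583, minus strand) and Fcgr2b (chr1:170958617-170976547, minus strand) are separated by 31033 bases. Fcer1g lies further along (chr1:171229572-171234365, minus strand), and Fcmr is distant from them (chr1:130865669-130880791, plus strand).

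The 3 coding forms of Fcgr2b were distinguished by reads over a cassette, exon 6 of the 8 exons of transcript Fcgr2b-201, which codes for part of the cytoplasmic tail (chr1:170963325-170963465, minus strand of GRCm38). The form with the cassette is known as the main form of B cells, where it keeps the receptor at the surface, and the form without it is known from myeloid cells, where it permits uptake of immune complexes. The sequences are shown because the shares of these forms are reported below. They run 5′ to 3′, with 20 coding bases on either side of the cassette in lower case and the bases of the cassette in capitals. Fcgr2b-201 holds all 141 bases, Fcgr2b-203 holds the first 57 of them, and Fcgr2b-202 holds none.
Fcgr2b-201: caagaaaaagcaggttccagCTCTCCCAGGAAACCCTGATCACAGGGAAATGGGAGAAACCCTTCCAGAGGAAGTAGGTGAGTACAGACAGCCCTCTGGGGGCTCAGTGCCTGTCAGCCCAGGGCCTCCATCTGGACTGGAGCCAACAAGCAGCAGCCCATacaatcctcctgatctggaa
Fcgr2b-203: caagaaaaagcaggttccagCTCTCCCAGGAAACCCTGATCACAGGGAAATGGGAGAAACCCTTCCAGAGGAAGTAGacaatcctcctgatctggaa
Fcgr2b-202: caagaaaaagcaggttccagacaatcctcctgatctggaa

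The promoter of Fcrl1, the one of the 6 genes called under all alternatives in a comparison, is shown as the 250 bases before its RefSeq start (chr3:87376137-87376386, plus strand, GRCm38.p6). Capitals mark matches to GAGGAA, the core letters of PU.1-type ETS sites, on either strand.
Fcrl1: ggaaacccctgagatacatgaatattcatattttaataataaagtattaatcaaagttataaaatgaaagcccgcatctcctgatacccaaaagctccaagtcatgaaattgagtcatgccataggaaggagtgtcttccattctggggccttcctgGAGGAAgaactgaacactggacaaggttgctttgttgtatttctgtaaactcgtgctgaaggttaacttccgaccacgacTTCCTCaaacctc
Windows of this length were available for all 6 genes. GAGGAA, searched on both strands, stood in 3 of the 6 (Fcrl1, Fcrla and Fcmr), and in 23.3% of the 32851 windows of all genes. The octamer ATGCAAAT, the CCCNNGGG letters of EBF-type sites and the TTCNNNGAA letters of STAT-type sites stood in none of the 6, against 1.6%, 11.8% and 7.02% of all windows. The letters CANNTG stood in 5 of the 6 and in 66.2% of all windows. A match describes only the letters of the window.

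Libraries held 6447542 to 8033303 reads assigned to mouse genes. Levels are given as CPM, reads per 1000000 assigned reads, scaled by TMM (trimmed mean of M values), on which 3 reads correspond to 0.326 to 0.495 CPM. The human transcripts followed the labels: on the authors' normalized log2 scale, human MTCP1 was 11.12 to 12.3 in Eµ-MTCP1 mice and 5.85 to 6.19 elsewhere, and human TCL1A was 14.93 to 15.6 in Eµ-TCL1 mice and 6.04 to 6.96 elsewhere. The summed level of 8 B cell markers was similar in the 3 groups, from 7732 to 11416 CPM over the 9 libraries, and 1 of the 8, Ebf1, was called, lower in Eµ-TCL1. Of 5 markers of B1a and CLL-like cells, 4 were called higher in both transgenic groups (Cd5, Zbtb32, Bhlhe41 and Ctla4). Other cells were present to different extents. Neutrophil markers summed to 2759 CPM in Eµ-MTCP1 replicate 1 and 4973 CPM in wildtype replicate 2, against 29.8 to 437 CPM in the other 7 libraries, and natural killer cell markers reached 127.9 CPM in Eµ-TCL1 replicate 3 against 3.5 to 77.5 CPM in the others. Plasma cell markers summed to 776 to 1305 CPM in wildtype, 332 to 2914 CPM in Eµ-MTCP1 and 101.9 to 1959 CPM in Eµ-TCL1, and erythroid markers to 22.4 to 316 CPM, highest in Eµ-MTCP1 replicate 1. Of 5 plasma cell markers 1, Prdm1, a repressor that drives plasma cell differentiation, was called higher in both transgenic groups, by 2.11 ± 0.49 (edgeR adjusted p = 0.0227) and 1.83 ± 0.48 (adjusted p = 0.0401). Both calls were lost without wildtype replicates 2 or 3 or Eµ-MTCP1 replicate 3, and the first also without Eµ-MTCP1 replicate 2. The second was also lost without Eµ-TCL1 replicates 1 or 3 and with transcript-length offsets. The edgeR adjusted p reached 0.112 and 0.153. Wildtype replicate 2 was also read on a different lane from the other 8 libraries, so lane cannot be told apart from that mouse. In bulk RNA, fewer cells of a type and less RNA per cell cannot be told apart.

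Fcrl1, the activating Fc receptor-like gene, fell in B cells of Eµ-TCL1 mice. In wildtype mice it was 272, 246 and 309 CPM in replicates 1 to 3. In Eµ-MTCP1 mice it was 158, 68.3 and 144 CPM, and in Eµ-TCL1 mice it was 51.8, 41.5 and 92.7 CPM. All 6 transgenic libraries lay below all 3 wildtype libraries, whereas the transgenic groups overlapped.
Relative to wildtype, Fcrl1 fell by 2.15 ± 0.36 (SE) on the log2 scale in Eµ-TCL1, a 4.45-fold difference of the means (edgeR quasi-likelihood test, Benjamini-Hochberg adjusted p = 0.00473). The difference passed the threshold under all 18 alternatives, with adjusted p of at most 0.0265. In Eµ-MTCP1 the difference was -1.16 ± 0.35 with adjusted p = 0.0661, which missed the threshold of 0.05; it passed under 5 of the 18 alternatives, among them DESeq2 (adjusted p = 0.0127). Between the leukemias the difference was -0.99 ± 0.35 (Eµ-TCL1 over Eµ-MTCP1) with edgeR adjusted p = 0.684.

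**Figure D1:**
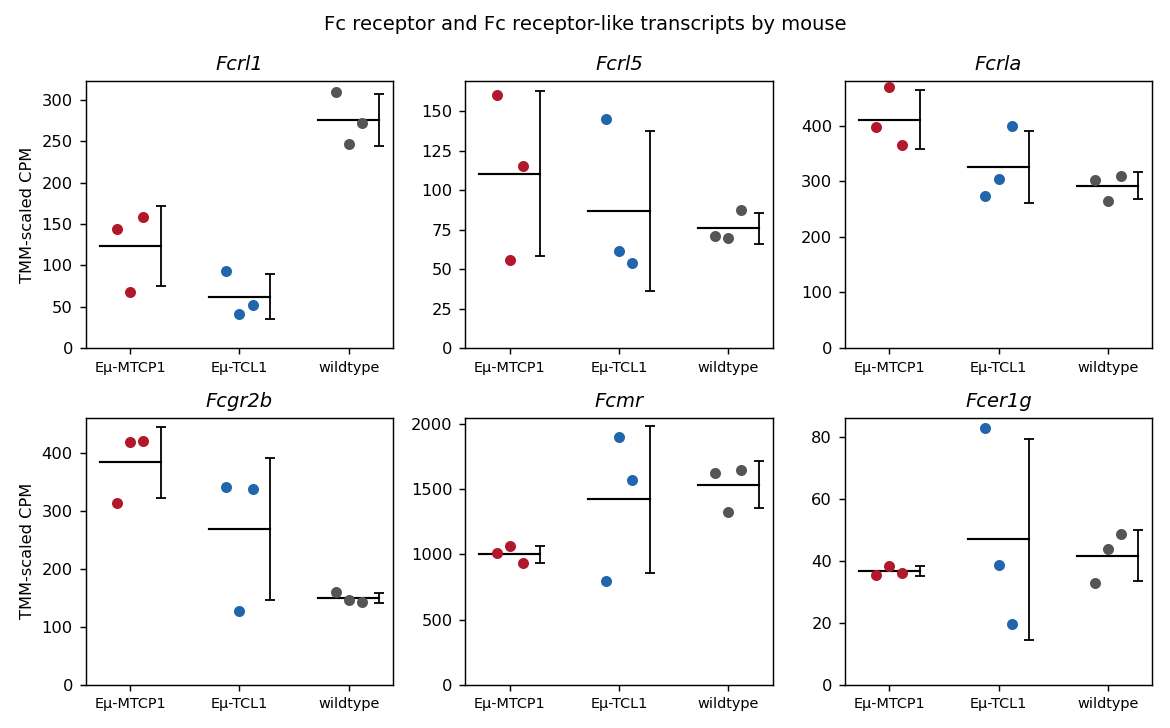
TMM-scaled CPM (vertical axes, each starting at 0) of the 6 genes in Eµ-MTCP1, Eµ-TCL1 and wildtype mice, with 1 point per mouse, a line at the group mean and a bar of ± 1 SD. Fcrl1 lay at 246 to 309 CPM in the 3 wildtype mice, above all 6 transgenic mice, and Fcgr2b lay at 144 to 160 CPM in wildtype, below all mice except Eµ-TCL1 replicate 2.

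Fcrl5, the neighbor of Fcrl1 on chromosome 3, was not called in either comparison with wildtype. It was 87.2, 69.5 and 70.7 CPM in wildtype, 115, 55.8 and 160 CPM in Eµ-MTCP1 and 53.6, 61.5 and 145 CPM in Eµ-TCL1. The transgenic groups spread widely around the wildtype values and overlapped them. The log2 differences from wildtype were 0.54 ± 0.42 in Eµ-MTCP1 (edgeR adjusted p = 0.458) and 0.19 ± 0.42 in Eµ-TCL1 (adjusted p = 0.818). The first was 0.18 without Eµ-MTCP1 replicate 3 and 0.83 without Eµ-MTCP1 replicate 2, and the second turned to -0.40 without Eµ-TCL1 replicate 3. The ratio of Fcrl5 to Fcrl1, from TPM over coding length and chosen after the values were seen, was 0.0965 to 0.15 in wildtype, against 0.328 to 0.69 over the 6 transgenic mice. Of the other neighbors, Cd5l before Fcrl1 was between 0.996 and 2.61 CPM in the group means, and Etv3 beyond Fcrl5 was 23.3 to 29.1 CPM, neither with a called difference.

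Fcrla was 310, 264 and 301 CPM in wildtype, 366, 469 and 397 CPM in Eµ-MTCP1 and 398, 305 and 273 CPM in Eµ-TCL1. On this scale all Eµ-MTCP1 values lay above the wildtype values, and Eµ-TCL1 overlapped both groups. By TPM over coding length, Eµ-MTCP1 (172.9 to 218.1) and wildtype (159.7 to 195.4) overlapped. The log2 difference of Eµ-MTCP1 from wildtype was 0.49 ± 0.20 (edgeR adjusted p = 0.157) and that of Eµ-TCL1 was 0.16 ± 0.20 (adjusted p = 0.676). Neither passed the threshold under any of the 18 alternatives.

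Fcgr2b, the inhibitory IgG receptor, rose in B cells of Eµ-MTCP1 mice. In wildtype it was 144, 147 and 160 CPM, with a coefficient of variation over mice of 5.78% by CPM and 16.95% by TPM over coding length. In Eµ-MTCP1 it was 420, 419 and 314 CPM, above all wildtype values. In Eµ-TCL1 it was 338, 127 and 341 CPM, so that 2 mice lay within the Eµ-MTCP1 range and replicate 2 lay below the lowest wildtype mouse.
Fcgr2b rose in Eµ-MTCP1 relative to wildtype by 1.35 ± 0.33 on the log2 scale, 2.55-fold (edgeR adjusted p = 0.0288). The call was made under 11 of 18 alternatives. It was lost with scaling by library size alone (1.11, adjusted p = 0.0527) and on leaving out any 1 of the 6 Eµ-MTCP1 or wildtype libraries (log2 difference 1.25 to 1.48, highest adjusted p = 0.105), including Eµ-MTCP1 replicate 1 and wildtype replicate 2, which had high neutrophil markers. In Eµ-TCL1 the difference from wildtype was 0.84 ± 0.33 (adjusted p = 0.143); without Eµ-TCL1 replicate 2 it was 1.15 with adjusted p = 0.00965. The leukemias differed by -0.52 ± 0.32 (adjusted p = 0.842), and by -0.18 without Eµ-TCL1 replicate 2. This mouse also had the lowest sum of plasma cell markers, 101.9 CPM. Other mice did not follow that order: the sum was 332 CPM in Eµ-MTCP1 replicate 1, with 420 CPM of Fcgr2b. It was 776 to 1305 CPM in wildtype, with 144 to 160 CPM of Fcgr2b. The part of plasma cells in the Fcgr2b level was not tested.

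Reads of Fcgr2b and Fcgr3, whose extracellular domains are near-identical in the mouse, may be divided uncertainly between these genes. Fcgr3, the activating IgG receptor of low affinity, had group means of 14.5 to 17.2 CPM, and its log2 differences from wildtype were -0.01 in Eµ-MTCP1 and -0.25 in Eµ-TCL1.

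The coding forms of Fcgr2b shown above were present in every library. Of the TPM of the gene, the share of Fcgr2b-202, without the cassette, was 46.6 ± 3.04% (SD, n = 3) in wildtype mice, 55.1 ± 4.04% in the MTCP1 model and 49.0 ± 4.26% in the TCL1 model. Fcgr2b-201, with the whole cassette, held 41.9 ± 1.92%, 35.98 ± 3.07% and 40.1 ± 3.99% in the same order. Fcgr2b-203 held 11.5 ± 1.15%, 8.96 ± 1.53% and 10.9 ± 0.83%. By group mean, the form without the cassette held the largest share in each group, although in wildtype replicate 2 Fcgr2b-201 (44.0%) exceeded it (43.2%).
The share of Fcgr2b-202 was 5.39 percentage points higher in the 6 transgenic libraries than in the 3 wildtype libraries, which did not pass the exact permutation test (two-sided p = 0.143, adjusted p = 0.714 over 5 genes). The 84 ways of choosing 3 of 9 libraries allow p no smaller than 0.0119, and a gene alone at that p would have adjusted p = 0.0595, so a difference in 1 gene could not be called after adjustment. The shares depended on the reference. With full transcripts in place of coding sequences, which adds noncoding transcripts to the TPM of the gene, Fcgr2b-202 held 53.9 ± 1.82% of it in wildtype, 56.4 ± 3.74% in the MTCP1 model and 56.9 ± 2.79% in the TCL1 model. Of the TPM of the coding forms alone, it held 66.1%, 70.5% and 65.8% on that reference, so the order of the transgenic groups turned with the denominator.

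**Figure D2:**
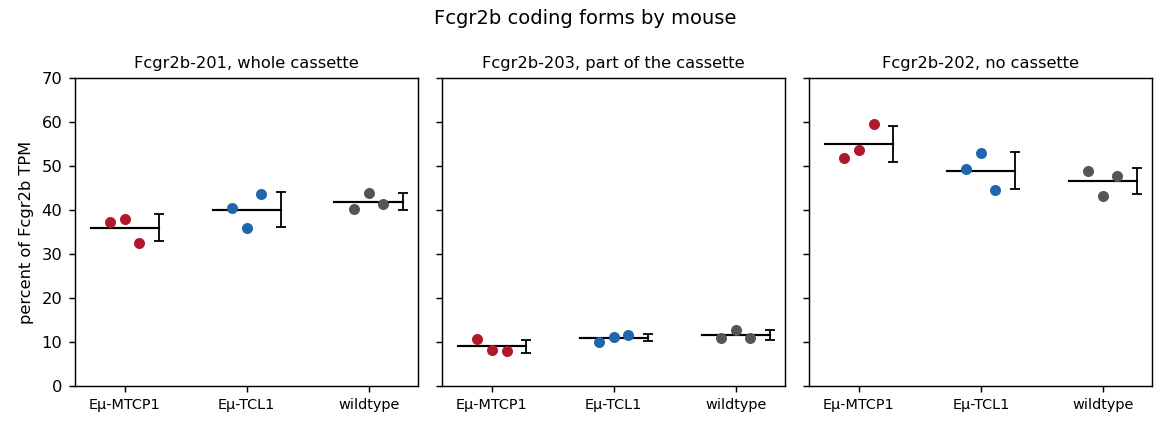
Share of the TPM of Fcgr2b (vertical axis, percent) held by the form with the whole cassette, with part of it and without it, in Eµ-MTCP1, Eµ-TCL1 and wildtype mice, with 1 point per mouse, a line at the mean and a bar of ± 1 SD. The form without the cassette held 43.2% to 59.6% in single mice and the form with part of it 7.94% to 12.8%.

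The leading transcripts of the other genes were compared in the same way, with the same limit. Fcrl1-201 held 74.0 ± 2.82% of the TPM of Fcrl1 in wildtype, 73.5 ± 6.61% in Eµ-MTCP1 and 73.9 ± 2.85% in Eµ-TCL1. Fcrla-201 held 59.6 ± 5.71%, 61.8 ± 3.04% and 60.0 ± 1.05%. Fcrl5-205 and Fcer1g-201 held at least 95.3% and 97.6% in any mouse, and Fcmr had 1 coding form in the table. None of the 5 genes with more than 1 form had a share that differed by the exact permutation test, with 0 of 5 at an unadjusted p under 0.05, 0.143 being the lowest, and adjusted p of 0.714 to 0.929.

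Fcmr, the IgM receptor, was not called in any comparison. It was 1645, 1324 and 1623 CPM in wildtype and 932, 1061 and 1007 CPM in Eµ-MTCP1, and these groups did not overlap. In Eµ-TCL1 it was 1571, 1895 and 795 CPM, a spread that enclosed all values of the other groups. The log2 difference from wildtype was -0.61 ± 0.29 in Eµ-MTCP1 (edgeR adjusted p = 0.224) and -0.11 ± 0.29 in Eµ-TCL1 (adjusted p = 0.855). In Eµ-TCL1, replicate 2 had the highest Fcmr and the lowest Fcgr2b. Replicate 3 had the lowest Fcmr, but its Fcgr2b (341 CPM) was nearly that of replicate 1 (338 CPM). The ratio of Fcmr to Fcgr2b by TPM, also chosen after the values were seen, was 12.98 in replicate 2, 2.02 in replicate 3 and 4.08 in replicate 1. It was 7.80 to 9.77 in wildtype and 1.90 to 2.72 in Eµ-MTCP1.

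Fcer1g, the common γ chain, is a gene of myeloid and natural killer cells and is low in B cells. It was 48.6, 43.6 and 32.7 CPM in wildtype, 36.2, 38.4 and 35.4 CPM in Eµ-MTCP1 and 19.6, 38.6 and 82.7 CPM in Eµ-TCL1. Its groups overlapped, and the log2 differences from wildtype were -0.18 ± 0.41 (edgeR adjusted p = 0.813) and 0.17 ± 0.41 (adjusted p = 0.834). The mouse with the highest Fcer1g, Eµ-TCL1 replicate 3, also had the highest summed level of 13 markers of monocytes, macrophages and dendritic cells, 1942 CPM, and of natural killer cells. The mouse with the lowest, Eµ-TCL1 replicate 1, had the lowest sum of both, 493 CPM for the myeloid markers. All 13 myeloid markers were detected above 3 reads in at least 1 library, and their sum was 840 to 1258 CPM in Eµ-MTCP1 and 896 to 1586 CPM in wildtype. The part of these cells in the Fcer1g level was not tested. Without Eµ-TCL1 replicate 3, the difference of Eµ-TCL1 from wildtype turned to -0.52.

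**Figure D3:**
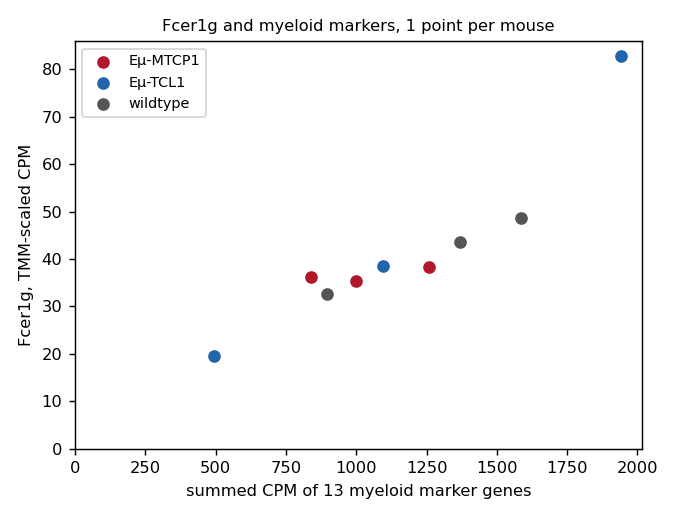
Fcer1g (vertical axis, TMM-scaled CPM) against the summed CPM of 13 myeloid marker genes (horizontal axis), with 1 point per mouse colored by group. Eµ-TCL1 mice held both the lowest point, at 493 and 19.6 CPM, and the highest, at 1942 and 82.7 CPM.

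Of the 6 genes, 1 was called in Eµ-MTCP1 against wildtype (Fcgr2b) and 1 in Eµ-TCL1 against wildtype (Fcrl1), at an adjusted p under 0.05 over all genes tested. In these comparisons 9.48% and 9.2% of all genes were called, so the count of 1 in 6 is not far from the background. By CPM, single values of Eµ-MTCP1 and wildtype mice were fully apart for 4 genes (Fcrl1, Fcrla, Fcgr2b and Fcmr), as they were for 29.9% of all genes. Of these, Fcrla overlapped by TPM. In Eµ-TCL1 against wildtype, values were apart by CPM for 1 gene (Fcrl1), where 32.6% of all genes were apart. Between Eµ-TCL1 and Eµ-MTCP1 edgeR called 0 of the 6, with 1 (Fcrl1) at an unadjusted p under 0.05 and 0 by DESeq2; 0.0448% of all genes were called, and values were apart for 0 of the 6 and for 11.0% of all genes. The median log2 difference of the 6 genes was 0.16 in Eµ-MTCP1 and 0.16 in Eµ-TCL1 against wildtype, and -0.34 between the leukemias, whereas the median of all genes lay within 0.02 of 0. Both comparisons with wildtype use the same 3 wildtype libraries.

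**Figure D4:**
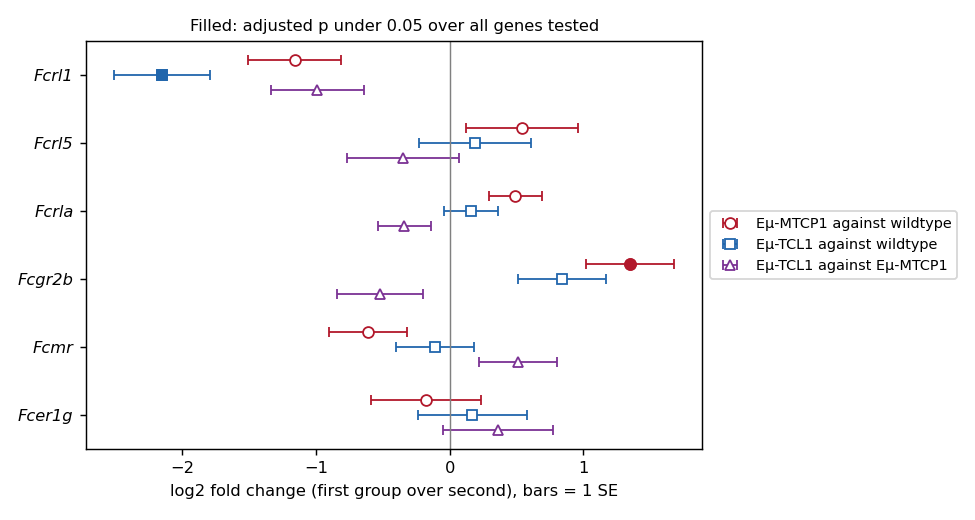
Log2 fold change of each gene in 3 comparisons (horizontal axis), with bars of ± 1 SE and filled symbols for an adjusted p under 0.05. The filled symbols are Fcgr2b at 1.35 for Eµ-MTCP1 against wildtype and Fcrl1 at -2.15 for Eµ-TCL1 against wildtype.

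Compared per coding length, Fcmr was first and Fcrl5 last by the mean of each group; in Eµ-TCL1 replicate 3, Fcer1g (528 TPM) exceeded Fcmr (353 TPM). In wildtype, TPM was 802 ± 90.8 for Fcmr, 309 ± 62.2 for Fcer1g, 179 ± 18.1 for Fcrla, 155 ± 24.8 for Fcrl1, 92.6 ± 15.7 for Fcgr2b and 19.2 ± 1.54 for Fcrl5 (SD, n = 3). Fcrla and Fcrl1, neighbors in this order, overlapped. In Eµ-MTCP1, Fcgr2b (185 ± 29.7) stood above Fcrl1 (54.4 ± 21.5) and beside Fcrla (194 ± 22.8). In Eµ-TCL1, Fcrl1 (29.2 ± 12.6) overlapped Fcrl5 (18.1 ± 10.3). The position of Fcer1g depended on the reference: with full transcripts it was 169 ± 43.5 TPM in wildtype, beside Fcrla at 205 ± 21.2.

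Of 13 other Fc receptor genes, 9 were tested. In Eµ-MTCP1 against wildtype 1 was called higher and 2 lower, and in Eµ-TCL1 against wildtype 2 were called higher and 2 lower, against 9.48% and 9.2% of all genes called in either direction. The median log2 differences of the list were -0.01 and 0.32.
Fcer2a encodes CD23, the low-affinity IgE receptor of follicular B cells. It was 361, 293 and 414 CPM in wildtype, 5.78, 15.1 and 8.20 CPM in Eµ-MTCP1 and 2.10, 4.67 and 4.56 CPM in Eµ-TCL1. It fell by 5.19 ± 0.41 on the log2 scale in Eµ-MTCP1 and fell by 6.55 ± 0.44 in Eµ-TCL1, and was called under all 18 alternatives in both.
Fcgrt, the neonatal Fc receptor that recycles IgG, was 41.5, 31.6 and 28.1 CPM in wildtype against 7.81 to 14.5 CPM in the 6 transgenic mice. It fell by 1.48 ± 0.30 in Eµ-MTCP1 (edgeR adjusted p = 0.0132, and 0.0506 without wildtype replicate 1) and by 1.79 ± 0.31 in Eµ-TCL1 (adjusted p = 0.00516).
Fcgr4, an activating IgG receptor that pairs with the γ chain, lies 42372 bases beyond Fcgr2b. It was 4.53, 2.93 and 1.49 CPM in wildtype, 40.6, 7.81 and 29.9 CPM in Eµ-MTCP1 and 29.7, 6.75 and 33.9 CPM in Eµ-TCL1, so that all transgenic mice lay above wildtype. It rose by 3.13 ± 0.74 (adjusted p = 0.0254) and 2.98 ± 0.74 (adjusted p = 0.0309). The calls were lost without wildtype replicates 2 or 3 in both comparisons, without wildtype replicate 1 in Eµ-TCL1, and without replicates 1 or 3 of either transgenic group in its own comparison, with adjusted p up to 0.119 and 0.13. Of the 13 myeloid markers, Cd68, a lysosomal protein of macrophages, was called higher in the same comparisons: it was 36.1 to 68.3 CPM in wildtype, 172 to 323 CPM in Eµ-MTCP1 and 154 to 236 CPM in Eµ-TCL1, and rose by 2.06 ± 0.32 (edgeR adjusted p = 0.00316) and 1.91 ± 0.32 (adjusted p = 0.00462). The median log2 differences of the marker list were -1.01 and -0.57, and its summed levels, given above, overlapped between the groups. The part of myeloid cells in the Fcgr4 level was not tested.
Pigr, the polymeric immunoglobulin receptor beside Fcmr, was 1.06, 0.76 and 2.60 CPM in wildtype, 11.9, 3.27 and 28.1 CPM in Eµ-MTCP1 and 57.4, 27.9 and 7.33 CPM in Eµ-TCL1. It rose in Eµ-TCL1 by 4.37 ± 0.94 (adjusted p = 0.0165). The Eµ-TCL1 call was lost without any 1 wildtype replicate, on the standard reference and in the deposited gene counts (adjusted p up to 0.0792), and its size ran from 2.32 in the gene counts to 5.07 without wildtype replicate 3. In Eµ-MTCP1 the difference was 3.27 with adjusted p = 0.051, and 1.96 to 3.97 over the alternatives. Fcgr1, Fcgr3, Fcrlb, Fcamr and Trim21 were not called.

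**Figure D5:**
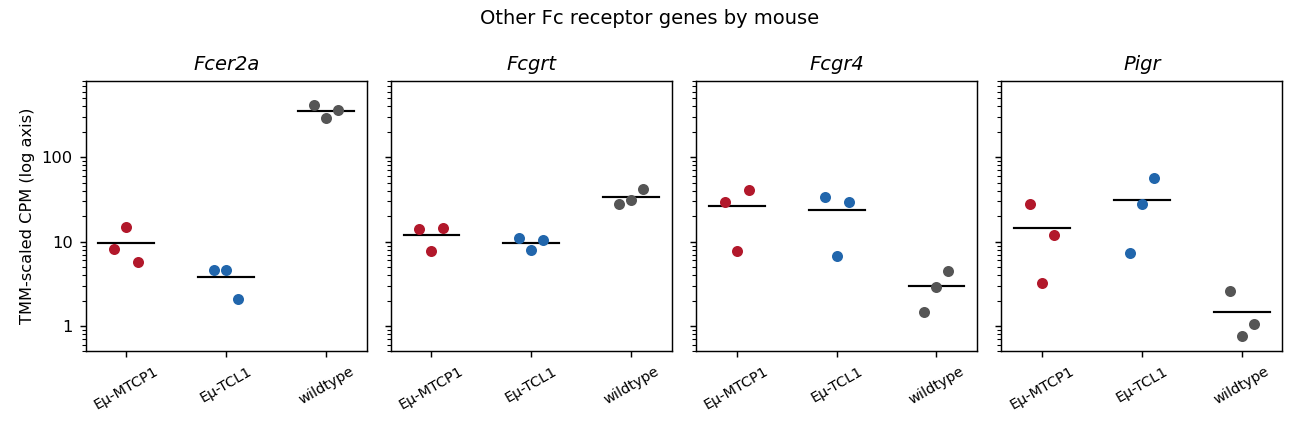
TMM-scaled CPM (vertical log axis, shared) of 4 other Fc receptor genes in Eµ-MTCP1, Eµ-TCL1 and wildtype mice, with 1 point per mouse and a line at the mean. Fcer2a and Fcgrt lay lower in all 6 transgenic mice than in wildtype, and Fcgr4 and Pigr lay higher.

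Of 12 inhibitory co-receptors of B cells 11 were tested, and 1, Cd5, was called in each comparison with wildtype, a share close to the 9.48% and 9.2% of all genes; the median log2 differences of the list were -0.25 and 0.1. Cd5 rose in both transgenic groups, by 4.02 ± 0.65 and 4.44 ± 0.66 on the log2 scale. Without wildtype replicate 1, which had the most Cd5 of the 3 wildtype mice, these were 5.05 and 5.48, and without Eµ-TCL1 replicate 2 the second was 3.81. CD5 is a surface marker by which the study followed the leukemia. Cd22, the sialic acid-binding inhibitory receptor, differed from wildtype by -0.90 ± 0.25 in Eµ-TCL1 (edgeR adjusted p = 0.0517) and Pirb, the paired inhibitory receptor, by 1.02 ± 0.29 (adjusted p = 0.0554).

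Of 18 kinases, phosphatases and adaptors of these receptors, all tested, 1 was called in Eµ-MTCP1 against wildtype and 2 in Eµ-TCL1 against wildtype, again close to the share of all genes. Inppl1, which encodes SHIP2, a lipid phosphatase related to the one that Fcgr2b recruits, was 23.7, 17.04 and 13.1 CPM in wildtype and 47.7 to 89.6 CPM in the 6 transgenic mice. It rose by 1.56 ± 0.26 and 2.09 ± 0.26 and was called under all 18 alternatives in both. Inpp5d, which encodes SHIP itself, differed by -0.19 ± 0.20 in each comparison, and Ptpn6, the tyrosine phosphatase SHP-1, by -0.16 and -0.02. Lyn, the kinase that phosphorylates the inhibitory motifs, differed by 0.44 ± 0.20 (adjusted p = 0.202) and 0.17 ± 0.20. Fyn fell by 2.18 ± 0.60 in Eµ-TCL1 (adjusted p = 0.0481), a call made under 7 of 18 alternatives. The difference was -2.93 without Eµ-TCL1 replicate 3 and -1.69 without replicate 1. In Eµ-MTCP1 the Fyn difference from wildtype was of similar size, -1.96 ± 0.60 (edgeR adjusted p = 0.0683), and was called under 6 of 18 alternatives.
Of 15 ITAM chains and receptors that pair with Fcer1g, 10 were tested, and Fcgr4 alone was called in the 2 comparisons with wildtype, which is also close to the share of all genes. Tyrobp, the other myeloid adaptor of this kind, was 110 to 194 CPM in wildtype, 166 to 235 CPM in Eµ-MTCP1 and 118 to 269 CPM in Eµ-TCL1, without a called difference.

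The genes whose levels were most like each of the 6 over the 9 libraries, by Pearson r of log2 CPM among 8961 genes with a mean of at least 5 CPM, are given as a description; libraries of a group share its other differences. For Fcrl1 they were Tmem173 (0.957), Sidt1 and Pqbp1. For Fcrl5 they were Gngt2 (0.963), Atp9a and Pggt1b, and for Fcrla Pdcd5 (0.922), Zcwpw1 and Ddah2. For Fcgr2b they were Atraid (0.962), Ero1lb and Dkkl1, and for Fcmr Ramac (0.941), Tec and Bcar3. For Fcer1g they were Ly6c2 (0.939), a monocyte gene that stands in the myeloid marker list, Tnfrsf1a and Ifitm3.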

How the data were processed

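RNA of 9 libraries was measured by RNA-seq after SMARTer preamplification. According to the submitters' processing notes, the authors used CASAVA 1.8.2, HISAT2 2.0.6, featureCounts, DESeq2 and Salmon 1.0.0 with GRCm38.p4. The deposited Salmon files give estimated counts and TPM per transcript, on coding sequences plus 17 human transcripts and on a standard reference; the authors also deposited a gene table of read counts and normalized log2 values. The table also holds base means, fold changes and p-values of the authors' comparisons, which were not used. No per-sample column was unmapped (0).

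Estimated counts on the coding reference were summed per GENCODE M21 gene and rounded (unassigned reads at most 0.291%). Genes were tested with edgeR 4.0.16 (R 4.3.3; filterByExpr, TMM, quasi-likelihood F test, 1 fit over all 9 libraries), with Benjamini-Hochberg adjustment over 11165 genes and calls at adjusted p under 0.05; the script was tested on simulated data. The labels do not say that replicates differ in anything but the mouse. Shares of transcripts were compared by exact permutation. Alternatives were DESeq2 1.42.0, other scalings, no filter, length offsets, the standard reference, the gene table, 2 groups alone and each library left out. Named genes were the 6 members, called genes of the lists with at most 4 others a list, neighbors, and the 3 genes most like each member. The result of 1 marker gene is not reported here. Members and lists were chosen with earlier results of these data known. Whether counting used strand was not settled. Precision is limited by 3 mice a group.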

Additional observations from a re-analysis of the deposited data

How the results depend on the processing

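Of 379 alternative values for single genes, 353 kept their direction and side of the threshold, 6 gained a call, 7 lost one and 13 changed sign. None of the last was called. Most of these values were not called to begin with, and they include the transcript shares, where a gene alone could not be called. The lost calls were all of Fcgr2b in Eµ-MTCP1 against wildtype, which was called under 11 of 18 alternatives. No paired analysis was possible because the labels number no replicates: the numbers used in the text only name the mice, in the order of deposit. In Eµ-MTCP1 against wildtype, calls over all genes numbered 1059, 1646 with DESeq2, and 525 to 1028 without 1 library; calls among the 6 genes numbered 1, 2 with DESeq2, without the expression filter or with only the 2 groups compared, and 0 to 2 without 1 library. In Eµ-TCL1 against wildtype they numbered 1027, 1695 with DESeq2, and 517 to 1240 without 1 library, and 1 to 2 of the 6 genes without 1 library. Between the leukemias they numbered 5, 73 with DESeq2, 16 without the filter, and 5 to 8 without 1 library, with 0 of the 6 genes throughout. The causes were not tested. With library size as the only scaling, the median over all genes was -0.26 in Eµ-MTCP1 and -0.15 in Eµ-TCL1 against wildtype. Without 1 library, the Eµ-TCL1 difference from wildtype ranged from -0.4 to 0.45 for Fcrl5, -0.01 to 0.27 for Fcrla, -0.4 to 0.18 for Fcmr and -0.52 to 0.54 for Fcer1g; that of Eµ-MTCP1 ranged from 0.18 to 0.83 for Fcrl5 and -0.34 to -0.06 for Fcer1g; that between the leukemias ranged from -0.94 to 0.02 for Fcrl5, -0.72 to -0.18 for Fcgr2b and -0.33 to 0.72 for Fcer1g. Share differences ranged from -1.8 to 1.09 percentage points for Fcrl1 and -1.97 to 3.01 for Fcrla without 1 library; by estimated counts Fcrl1 was 0.153, and on the standard reference Fcer1g was 0.0558. Over 11 alternatives adjusted p for the shares was 0.179 to 0.964, which shows nothing of stability: a gene alone at the smallest possible p would have adjusted p = 0.0595, or 0.0893 and 0.179 without a transgenic or a wildtype library.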
